A study of Homo sapiens with 6 samples.

Results

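The APOBEC3 genes encode a family of cytidine deaminases. All 7 human members, APOBEC3A, APOBEC3B, APOBEC3C, APOBEC3D, APOBEC3F, APOBEC3G and APOBEC3H, were taken by gene symbol from an FPKM table of 50868 genes with values, and each was found in 1 row. FPKM is the number of sequenced fragments divided by the length of the gene and by the depth of the library. The members were taken by name as a whole family and not picked by their values, though earlier results of these data were known.

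APOBEC3 enzymes convert cytosine to uracil in single-stranded DNA and restrict retroviruses and endogenous retroelements. APOBEC3A and APOBEC3B reach the nucleus and are known as sources of cytosine mutations in tumour genomes, bladder cancer among them, while APOBEC3D, APOBEC3F, APOBEC3G and APOBEC3H are packaged into retroviral particles unless the viral protein Vif directs their degradation. Some members are known to respond to interferon, and APOBEC3B is in addition known to respond to NF-kB signaling and to the E2F and DREAM regulators of the cell cycle.

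The libraries came from a pair of lines grown from human bladder cancers, 5637 and UM-UC-3, transduced with lentivirus and kept under puromycin as stable cells. Each line carried either a negative control hairpin (sh-NC) or a short hairpin RNA against the long non-coding RNA LNMAT1 (sh-LNMAT1#1 or sh-LNMAT1#2), with 1 library for each of the 6 combinations of line and hairpin. Everything the cells shared, the viral vector and the selection included, was therefore also in the sh-NC cells, and no untransduced cells entered the comparisons. With 1 library per hairpin and line, no change within a line has a replicate check.

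Depths read from the smallest steps of the FPKM values ran from 19375000 to 24707000 fragments, and the row of the target, LINC01296, was at 14.2 FPKM with sh-NC and 6.20 and 6.70 with #1 and #2 in UM-UC-3, and at 11.7, 4.70 and 2.14 in the libraries labelled 5637. The library labelled 5637 sh-NC stood apart from its label. Over 12717 genes its log2(FPKM + 0.5) values had a Pearson r of 0.985 with UM-UC-3 sh-LNMAT1#1 but of 0.617 and 0.622 with the 5637 hairpin libraries. This r is across genes, which are not independent replicates. Summed over 14 epithelial and urothelial markers, the level was 787 and 1071 FPKM in the 5637 hairpin libraries. It was 25.9 to 32.5 FPKM in the UM-UC-3 libraries and 29.9 FPKM in the library labelled 5637 sh-NC. KRT19 made up the largest part in 5637, at 300 and 409 FPKM. Of the 14 markers, 3 were under 1 FPKM in every library. The mesenchymal markers VIM, CDH2, ZEB1 and ZEB2 were lower in both 5637 hairpin libraries than in all others. FN1 and TWIST1, of the same list, were higher there. The pooled fit and the line difference are therefore given with and without the library labelled 5637 sh-NC. The ratios and 2-fold counts within 5637 and the interaction cannot be given without it. Markers of leukocytes, cells known for high APOBEC3 levels, were near 0, with 13 of 13 under 1 FPKM in every library, summed levels of 0.512 to 1.10 FPKM, and CD3E, CD3D and FCGR3A at 0 throughout. Of all 50868 genes, 35763 were likewise under 1 FPKM in every library.

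The 7 genes lie in a row on the plus strand of chromosome 22 (GRCh38), APOBEC3A at chr22:38952741-38992778, APOBEC3B at chr22:38982347-38992804, APOBEC3C at chr22:39014083-39020352, APOBEC3D at chr22:39014363-39033276, APOBEC3F at chr22:39040604-39053910, APOBEC3G at chr22:39040961-39087743 and APOBEC3H at chr22:39097224-39104067. Their coding sequences hold long identical stretches, which bear on every value below because a fragment inside such a stretch cannot be placed by its sequence alone. The runs that follow were read from the GENCODE release 29 transcripts and are printed 5′ to 3′. In the first and second, capitals mark the codons of the Pro-Cys to Cys segment that binds the catalytic zinc, and in the third they mark the start codon.
APOBEC3A and APOBEC3B shared run: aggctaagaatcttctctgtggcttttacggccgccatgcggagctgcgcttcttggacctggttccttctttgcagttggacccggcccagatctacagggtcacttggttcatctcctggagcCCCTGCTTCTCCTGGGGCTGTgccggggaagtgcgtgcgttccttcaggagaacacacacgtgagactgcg
APOBEC3D and APOBEC3F shared run: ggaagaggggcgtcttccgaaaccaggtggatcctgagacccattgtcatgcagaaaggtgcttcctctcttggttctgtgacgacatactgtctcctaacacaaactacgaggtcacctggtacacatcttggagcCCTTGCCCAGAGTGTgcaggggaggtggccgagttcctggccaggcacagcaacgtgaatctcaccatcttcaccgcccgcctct
APOBEC3F and APOBEC3G shared run: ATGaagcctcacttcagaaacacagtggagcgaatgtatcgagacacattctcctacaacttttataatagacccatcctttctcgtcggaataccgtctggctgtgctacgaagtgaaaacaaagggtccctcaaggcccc

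The first run, of 196 bases, spans exons 3 and 4 of APOBEC3A (chr22:38959685-38961580 with the intron between them) and exons 5 and 6 of APOBEC3B (chr22:38989609-38991525). The second, of 222 bases, spans exons 5 and 6 of APOBEC3D (chr22:39029494-39031889) and of APOBEC3F (chr22:39049556-39052269). The third, of 142 bases, opens the coding sequence in exons 1 and 2 of APOBEC3F (chr22:39040961-39043061) and of APOBEC3G (chr22:39077362-39079056). Counted as words of 50 bases over all transcripts, 37.8% of APOBEC3B, 24.5% of APOBEC3A, 20.8% of APOBEC3F, 14.8% of APOBEC3D, 7.1% of APOBEC3G and 1.1% of APOBEC3C recurred in another member, and none of APOBEC3H did. By this measure APOBEC3C shared the least sequence among the expressed members. The exons of APOBEC3A and APOBEC3B overlap over 348 bases in the annotation, through transcripts of APOBEC3A that reach the end of APOBEC3B. Words within this overlap were counted as recurring for both genes, though they are the same bases of the genome. The shares of APOBEC3A and APOBEC3B therefore overstate the sequence held in separate copies. The deposited loci of APOBEC3C and APOBEC3D overlap over 5990 bases and those of APOBEC3F and APOBEC3G over 12950 bases, since the deposited starts of APOBEC3D and APOBEC3G lie upstream of those in GENCODE.

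APOBEC3B and APOBEC3C made up most of the summed APOBEC3 FPKM in every library. APOBEC3B, a member that reaches the nucleus, was at 33.9 FPKM with sh-NC, 8.94 with #1 and 26.5 with #2 in UM-UC-3, at 8.71 in the library labelled 5637 sh-NC, and at 16.3 and 13.0 in 5637 #1 and #2. The UM-UC-3 sh-LNMAT1#1 library and the library labelled 5637 sh-NC were the lowest and differed by less than their counting error, with a ratio of 0.974 (95% exact interval 0.872 to 1.09). APOBEC3C, a member with a single deaminase domain, was at 25.4, 24.0 and 18.4 FPKM in the UM-UC-3 libraries, at 21.4 in the library labelled 5637 sh-NC and at 45.8 and 40.0 in 5637 #1 and #2. Both 5637 hairpin libraries lay above all the others for this gene.

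APOBEC3F, a double-domain antiretroviral member, was at 1.23 FPKM with sh-NC, 1.94 with #1 and 1.53 with #2 in UM-UC-3, at 1.47 in the library labelled 5637 sh-NC and at 3.20 and 2.43 in 5637 #1 and #2. APOBEC3G, the member first described as a factor that blocks HIV-1 lacking Vif, was at 2.44, 2.18 and 1.72 FPKM in the UM-UC-3 libraries, at 2.02 in the library labelled 5637 sh-NC and at 0.765 and 0.605 in 5637 #1 and #2. APOBEC3D, a further double-domain member, was at 1.19, 1.25 and 0.915 FPKM in the UM-UC-3 libraries, at 1.04 in the library labelled 5637 sh-NC and at 0.115 and 0.110 in 5637 #1 and #2. The 5637 hairpin libraries were thus the highest for APOBEC3C and APOBEC3F and the lowest for APOBEC3G and APOBEC3D. The hairpin libraries of the lines did not overlap for these genes, of which APOBEC3D averaged under 1 FPKM over them, and did overlap for APOBEC3B. That makes 3 of the 4 members averaging 1 FPKM or more, where 72.6% of genes did not overlap. APOBEC3G reached that average through its UM-UC-3 levels alone, so it is no support for this count. As fragments, APOBEC3D had 111, 105, 79 and 88 in the first 4 libraries and 9 and 8 in 5637 #1 and #2.

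APOBEC3A, the single-domain deaminase known for the strongest activity on DNA, was close to the limit of detection, with 11, 2 and 8 fragments in UM-UC-3 sh-NC, #1 and #2, 2 in the library labelled 5637 sh-NC, and 5 and 3 in 5637 #1 and #2. These are levels of 0.0344 to 0.172 FPKM. Its share of the fragments given to APOBEC3A and APOBEC3B together was 0.310% to 0.453% in the 6 libraries, with 95% exact intervals that all overlapped, from 0.0375% to 1.11% in UM-UC-3 #1 and from 0.202% to 0.724% in UM-UC-3 sh-NC. Since 22.8% of the words of APOBEC3A, those of the overlapping exons included, recur in APOBEC3B, whether these fragments came from APOBEC3A was not tested. APOBEC3H had 1, 0 and 1 fragments in UM-UC-3, 2 in the library labelled 5637 sh-NC and 0 in both 5637 hairpin libraries, all under the floor of 3 fragments, which corresponds to 0.0476 to 0.0607 FPKM. No fold change is given for either gene. The intervals and floors cover counting error only.

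The deposited values place these levels too low by gene-specific amounts. The gene length that returned whole fragments equalled the sum of all distinct annotated exons, overlapping exons counted repeatedly, in 90.0% of 36533 detected genes (tolerance 0.01 fragments). Single-exon genes, where this sum and the merged exon length are the same, are among them. Of 27896 multi-exon genes, 87.4% gave whole fragments with this sum and 27.2% with the merged exon length. The length used exceeded the merged exon length 1.1-fold for APOBEC3A, 1.28-fold for APOBEC3C and APOBEC3F, 1.49-fold for APOBEC3D, 1.66-fold for APOBEC3G, 1.7-fold for APOBEC3B and 2.04-fold for APOBEC3H. Per kilobase of merged exons, APOBEC3B was at 57.7, 15.2 and 45.2 FPKM in UM-UC-3 and 27.9 and 22.2 in 5637 #1 and #2, and APOBEC3C at 32.4, 30.6 and 23.5 and at 58.4 and 51.0. The length is the same in every library, so it cancels in a ratio of the same gene between libraries.

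The order of the members differed between libraries. APOBEC3B exceeded APOBEC3C in UM-UC-3 sh-NC and #2, with ratios of deposited FPKM of 1.33 and 1.44, and lay below it in UM-UC-3 #1, the library labelled 5637 sh-NC and 5637 #1 and #2, with ratios of 0.373, 0.406, 0.357 and 0.325. Per kilobase of merged exons the same ratios were 1.78 and 1.93 against 0.498, 0.543, 0.477 and 0.435, so the order was the same on both scales. APOBEC3B made up 52.6% and 53.8% of the summed APOBEC3 level in UM-UC-3 sh-NC and #2 and 23.1% to 25.1% in the other 4 libraries. APOBEC3G stood above APOBEC3F in the UM-UC-3 libraries and in the library labelled 5637 sh-NC and below it in both 5637 hairpin libraries, also on both scales. APOBEC3D and APOBEC3F lay within each other's counting interval in UM-UC-3 sh-NC and changed order there with the length used. The summed APOBEC3 level in UM-UC-3 was 64.3 FPKM with sh-NC, 38.3 with #1 and 49.3 with #2, 34.8 in the library labelled 5637 sh-NC, and 66.3 and 56.2 in 5637 #1 and #2.

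The first question of the design was whether hairpins against LNMAT1 changed these genes within a line. In UM-UC-3 the hairpins differed for APOBEC3B. Sh-LNMAT1#1 gave a level 3.79-fold lower than sh-NC (95% exact interval 3.47 to 4.13) and sh-LNMAT1#2 a level 1.28-fold lower (1.20 to 1.35), and #2 was 2.97-fold above #1 (2.71 to 3.25). Such an interval compares the fragments of a pair of libraries and not the conditions. On the log2(FPKM + 0.5) scale, which understates the change of low genes, APOBEC3B differed from sh-NC by -1.86 and -0.35, APOBEC3C by -0.08 and -0.45, APOBEC3D by 0.05 and -0.26, APOBEC3F by 0.49 and 0.23 and APOBEC3G by -0.13 and -0.40 with #1 and #2. No member of the 5 with a mean of at least 1 FPKM passed 2-fold with both hairpins, where 1.44% of 12025 genes did in the same direction. With #1 alone APOBEC3B passed, as did 10.9% of genes (5.31% lower), and with #2 alone no member passed, against 3.51% of genes (1.41% lower).

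In the libraries labelled 5637, APOBEC3B, APOBEC3C and APOBEC3F were higher with both hairpins and APOBEC3G and APOBEC3D lower. APOBEC3C was 2.14-fold (2.02 to 2.26) and 1.86-fold (1.75 to 1.98) above sh-NC with #1 and #2, and APOBEC3B 1.88-fold (1.70 to 2.07) and 1.49-fold (1.34 to 1.66) above. APOBEC3F was 2.17-fold (1.76 to 2.69) and 1.65-fold (1.32 to 2.07) above. APOBEC3G was 2.64-fold (2.18 to 3.21) and 3.34-fold (2.69 to 4.18) below, and APOBEC3D 9.07-fold (4.56 to 20.5) and 9.50-fold (4.62 to 22.7) below. On the log2(FPKM + 0.5) scale no member of the 4 kept passed 2-fold with both hairpins, against 30.7% of 12791 genes. APOBEC3C passed with #1, as did 36.8% of genes, and APOBEC3G with #2, as did 35.2%. APOBEC3G averaged over 1 FPKM here only through the library labelled 5637 sh-NC. APOBEC3D, with a mean under 1 FPKM here, was not kept. The denominator of all these ratios is the library labelled 5637 sh-NC, which lay 1.03-fold below UM-UC-3 #1 for APOBEC3B, 1.12-fold for APOBEC3C, 1.20-fold for APOBEC3D, 1.08-fold for APOBEC3G and 1.32-fold for APOBEC3F. Over the 7 members its root mean square log2 distance was 0.156 from UM-UC-3 #1, 0.606 from UM-UC-3 #2, 0.745 from UM-UC-3 sh-NC and 0.888 and 0.813 from 5637 #1 and #2. A change with knockdown and a difference between lines cannot be told apart in these ratios.

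Pooled over the lines, with the cell line as covariate, limma called 0 of 12717 genes at an adjusted p under 0.05 (0% of genes, 811 at an unadjusted p under 0.05), and 0 of the 4 members kept. The pooled log2 difference was -0.20 ± 0.58 (SE, adjusted p = 0.900) for APOBEC3B, 0.36 ± 0.35 (adjusted p = 0.683) for APOBEC3C, 0.55 ± 0.28 (adjusted p = 0.569) for APOBEC3F and -0.68 ± 0.33 (adjusted p = 0.569) for APOBEC3G, from 4 hairpin libraries against 2 sh-NC libraries. Without the library labelled 5637 sh-NC, the difference was -1.11 for APOBEC3B and -0.27 for APOBEC3C and for APOBEC3G. Without UM-UC-3 sh-NC, the library labelled 5637 sh-NC was the sole control. The difference was then 0.71 for APOBEC3B, 0.98 for APOBEC3C and -1.09 for APOBEC3G.

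The second question was whether the lines differed. Here the 4 hairpin libraries were compared, 2 of each line, so that neither sh-NC library took part. APOBEC3C was higher in 5637 than in UM-UC-3 by 1.01 ± 0.22 on the log2 scale (SE, limma adjusted p = 0.0193), and APOBEC3G was lower, by -1.05 ± 0.22 (adjusted p = 0.0170), each in 2 of 2 hairpin pairs. In this fit 38.5% of 12844 genes passed, a share that gives between 1 and 2 of 4 genes. Of the 4 members kept 2 passed, but APOBEC3G was kept through its UM-UC-3 levels alone, so its call is no support for a count over the members. As ratios of fragments per depth, APOBEC3C was 1.91-fold (1.81 to 2.02) and 2.17-fold (2.04 to 2.31) higher in 5637 with #1 and #2, and APOBEC3G 2.85-fold lower with each (2.36 to 3.47 and 2.29 to 3.58). APOBEC3F differed by 0.56 ± 0.24 (adjusted p = 0.114), with ratios of 1.65 (1.36 to 2.00) and 1.58 (1.27 to 1.97). APOBEC3B differed by -0.08 ± 0.51 (adjusted p = 0.908), since it was 1.83-fold higher in 5637 with #1 and 2.04-fold lower with #2. APOBEC3D, not kept because its mean was under 1 FPKM, was 10.9-fold (5.52 to 24.5) and 8.34-fold (4.03 to 20.0) lower in 5637.

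Neither call held under every setting. With no filter on low values, where more genes enter the adjustment, the differences were as before and adjusted p was 0.0543 for APOBEC3C and 0.0552 for APOBEC3G, and 0.0336 for APOBEC3D at -1.36. Without 5637 #1 or 5637 #2, the differences were 0.91 (adjusted p = 0.191) and 1.11 (adjusted p = 0.136) for APOBEC3C and -1.15 (adjusted p = 0.110) and -0.95 (adjusted p = 0.141) for APOBEC3G, close to those with all 4 libraries. With all 6 libraries as labelled, the differences were 0.59 (adjusted p = 0.344) and -0.77 (adjusted p = 0.241). APOBEC3B was at -0.84 (adjusted p = 0.0468) without UM-UC-3 #1 and at 0.68 (adjusted p = 0.0761) without UM-UC-3 #2.

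**Figure D1:**
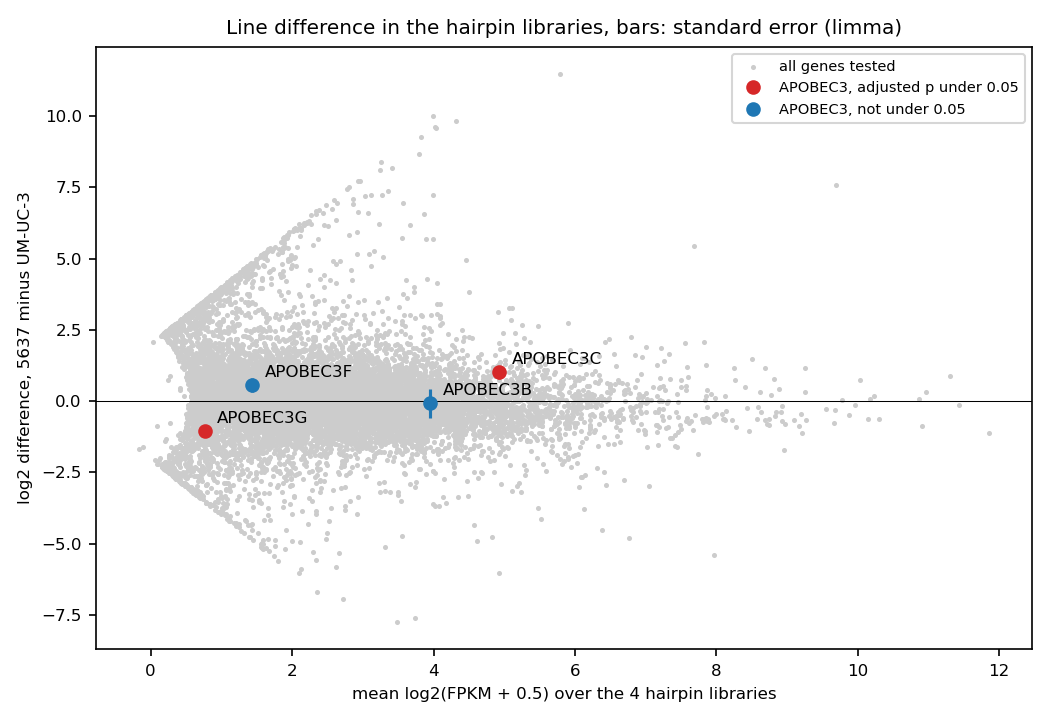
Log2 difference between the lines in the 4 hairpin libraries (5637 minus UM-UC-3) against the mean log2(FPKM + 0.5), grey points for all 12844 genes tested and coloured points with SE bars for the 4 APOBEC3 genes kept. APOBEC3C lies at 1.01 and APOBEC3G at -1.05, both inside the spread of the grey points.

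Whether the knockdown change differed between the lines was tested as an interaction, in which 18.8% of genes passed and none of the 4 members did. The change in 5637 minus that in UM-UC-3 was 1.82 ± 0.88 (SE, limma adjusted p = 0.196) for APOBEC3B, 1.25 ± 0.38 (adjusted p = 0.0763) for APOBEC3C, 0.37 (adjusted p = 0.542) for APOBEC3F and -0.83 (adjusted p = 0.182) for APOBEC3G. It rests on the library labelled 5637 sh-NC. A single hairpin library of UM-UC-3 moved it, to 2.58 for APOBEC3B (adjusted p = 0.0249) without #2, and to 1.06 for APOBEC3B and 1.44 for APOBEC3C (adjusted p = 0.0478) without #1.

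Levels of genes known to act on or with the APOBEC3 enzymes were read from lists chosen with earlier results of these data known. Among 13 other polynucleotide deaminases and their cofactors, APOBEC1, APOBEC2 and APOBEC4 were at or under 0.209 FPKM in every library, each below APOBEC3B, APOBEC3C, APOBEC3F and APOBEC3G in the same library. ADAR, which edits adenosine in double-stranded RNA, was at 38.6, 28.8 and 46.2 FPKM in UM-UC-3 and 32.5 and 29.9 in 5637 #1 and #2. Of the 6 tested between lines, RBM47, a cofactor of APOBEC1, was higher in 5637 by 3.09 (adjusted p = 0.000365). ADAT2, a subunit of the tRNA adenosine deaminase, was lower by -1.26 (adjusted p = 0.00875), and ADAT3, its partner, was also lower. That is 50% called, beside 38.5% of all genes in this fit. The median of the 6 was 0.10, beside -0.02 over all genes tested.

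The counts of the lists below stand beside the 38.5% of all genes that passed in this fit. Some listed genes, RBM47 and RB1 among them, were kept through the levels of 1 line alone. No list count is therefore support for a line difference. Of 17 genes of the uracil repair and translesion synthesis list tested, 0 were higher and 1 was lower in 5637, a share of 5.88%. That gene was REV3L, the catalytic subunit of a translesion polymerase, at -0.90 (adjusted p = 0.0394). Their median was 0.39. UNG, the main uracil DNA glycosylase, was at 9.66 FPKM with sh-NC, 9.00 with #1 and 11.0 with #2 in UM-UC-3 and at 12.2 and 10.1 in 5637 #1 and #2. Of 14 partners and RNA granule genes, 0 were higher and 2 lower, RNF7 at -1.32 (adjusted p = 0.00818) and TCEB1 at -0.89 (adjusted p = 0.0346), both parts of the ubiquitin ligase that Vif recruits, a share of 14.3%. The median of the 14 was -0.38. Of the 8 genes beside the APOBEC3 cluster tested, PDGFB at 2.31 and SUN2 at 1.05 were higher and 0 were lower, with a median of 0.11.

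Lists of the regulators known for this family were read beside APOBEC3B in UM-UC-3, with changes on the log2(FPKM + 0.5) scale. Of 29 interferon genes kept in UM-UC-3, 19 were at least 2-fold lower than sh-NC with #1 (median -1.42) and 0 with #2 (median -0.03), against 5.31% and 1.41% of all genes and medians of -0.004 and 0.02. Some of the 19 were under 1 FPKM with #1 and were kept only through sh-NC and #2, where they were high. The count is therefore no support for a fall with #1. IFI6, an interferon-induced gene, was at 296 FPKM in sh-NC, 32.3 with #1 and 350 with #2. Of 13 NF-kB genes, 7 were at least 2-fold lower with #1 (median -1.04) and 0 with #2. NFKB2 fell just short of that with #2, at -0.997 on this scale, and went from 55.0 FPKM with sh-NC to 27.3. BIRC3, an NF-kB target, was at 149, 9.72 and 113 FPKM. Of 16 E2F and DREAM genes, 5 were at least 2-fold lower with #1 (FOXM1, CCNB1, MKI67, TOP2A and MYBL2) and 0 with #2, while the list's median was -0.26 with #1 and -0.35 with #2. In the library labelled 5637 sh-NC, where APOBEC3B was similarly low, IFI6 was at 8.41, BIRC3 at 9.35 and TOP2A, a topoisomerase of dividing cells, at 32.4 FPKM, against 99.6 in UM-UC-3 sh-NC and 28.6 with #1. In 5637 #1 and #2, where APOBEC3B was higher, IFI6 was lower still, at 7.16 and 3.20 FPKM, and BIRC3 at 2.49 and 4.18. TOP2A was at 208 and 173 FPKM. Against the library labelled 5637 sh-NC, 21 interferon genes had medians of 0.66 and 0.49 with #1 and #2. Of these, 9 and 6 were at least 2-fold higher and 1 and 3 lower. Of all genes, 36.8% and 35.2% passed 2-fold in either direction. The 14 NF-kB genes had medians of 0.17 and -0.02, with 2 higher and 2 lower with each hairpin. Some of the higher interferon and NF-kB genes were under 1 FPKM in the library labelled 5637 sh-NC. They were kept through the hairpin libraries alone, so these counts are no support for a rise. The 16 E2F and DREAM genes had medians of 0.43 and 0.33. The part of any of these in the level of APOBEC3B was not tested.

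APOBEC3C and APOBEC3G did not share that pattern, at 0.944 and 0.895 of their sh-NC level with #1. Between lines, 25 interferon genes were tested, of which 2 were higher (TYK2 and GBP1) and 6 lower in 5637, IFI6 at -4.33 (adjusted p = 0.0306) among the latter, and the median was -1.16. That is 32% called, beside 38.5% of all genes, and the next lists gave 28.6% and 25%. Of 14 NF-kB genes 1 was higher and 3 were lower, TNFAIP3, an inhibitor of the pathway, at 3.03 (adjusted p = 0.0215) and PRKCA, a protein kinase C, at -2.33 (adjusted p = 0.00198) among them. The median was -0.27. Of 16 E2F and DREAM genes 2 were higher and 2 lower, TOP2A at 2.17 (adjusted p = 0.00976) and RB1, which restrains E2F, at -4.19 (adjusted p = 0.000198) among them, and the median was 0.36.

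By Euclidean distance over the 6 libraries in centred log2(FPKM + 0.5), the genes of 12716 most like APOBEC3B were SKA1 at 0.196, CEP55 at 0.282 and NFKBIE at 0.314. NPLOC4 at 0.103, RBBP6 at 0.187 and MAST3 at 0.203 were nearest to APOBEC3C, SLC29A4 at 0.145, TAGLN2P1 at 0.168 and RAB1C at 0.185 to APOBEC3F, and BORCS7 at 0.180, NXPE3 at 0.185 and FBXO25 at 0.198 to APOBEC3G. No gene appeared among the nearest of more than 1 member.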

How the data were processed

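RNA of stable UM-UC-3 and 5637 cells was sequenced from TruSeq Stranded mRNA libraries, 1 for each of the 6 groups. Per the submitters' processing notes, HISAT2 and the hg38 build were used, in roles and versions not given in the sources used here. The program and annotation behind the values are likewise not given in the sources used here. The authors deposited a table of FPKM values per gene. Its unused columns of sample values numbered 0.

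Depth was recovered from single-exon genes, of which at least 99.94% gave whole fragments (tolerance 0.01 fragments), and member fragments from the gene length that made all 6 values whole, equal to the summed distinct exons of GENCODE release 29 for 5 members and longer for APOBEC3D (3763 against 3746 bases) and APOBEC3G (9050 against 9018). Ratios carry exact 95% binomial intervals. Log2(FPKM + 0.5) values of genes averaging 1 FPKM or more were fitted with limma 3.58.1 (R 4.3.3, trended eBayes, Benjamini-Hochberg over all genes, two-sided, threshold 0.05), checked on simulated data. Nothing in the labels says that libraries were separate cultures, so p-values measure only the spread between these libraries. The 7 members and 12 gene lists were chosen with earlier results of these data known. Named genes were all members, the 3 list genes with the largest absolute line or pooled difference, other deaminases, leukocyte markers, the target and the 3 nearest genes to each member. NFKB2, TYK2, FOXM1, CCNB1, MKI67, UNG, CDH2, ZEB2 and TWIST1 fall outside this rule and were chosen after their values were seen. Alternatives changed the pseudocount, filter, scaling, trend, covariates and libraries.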

Additional observations from a re-analysis of the deposited data

Results flagged for a closer look

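APOBEC3B and APOBEC3C were each below sh-NC in the UM-UC-3 hairpin libraries (2 of 2) and above it in those of 5637 (2 of 2). The difference between these changes (5637 minus UM-UC-3) was 1.82 on the log2 scale for APOBEC3B (limma adjusted p = 0.196) and 1.25 for APOBEC3C (adjusted p = 0.0763), so neither passed the test. Without UM-UC-3 sh-LNMAT1#2 the value was 2.58 for APOBEC3B (adjusted p = 0.0249), and without sh-LNMAT1#1 it was 1.44 for APOBEC3C (adjusted p = 0.0478). Both rest on the library labelled 5637 sh-NC.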

How the results depend on the processing

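With 1 library per group, leaving out a library assumes that the lone library of a line varies like the others. Leaving out each in turn gave 0 to 4025 genes called in the pooled fit, 1192 to 5573 in the line difference and 498 to 4105 in the interaction, the lowest counts of the last 2 without a 5637 hairpin library, 4025 when UM-UC-3 sh-NC was out and 4105 when UM-UC-3 sh-LNMAT1#2 was. For the members, pooled differences then ranged from -1.11 to 0.71 for APOBEC3B, -0.27 to 0.98 for APOBEC3C, 0.36 to 0.74 for APOBEC3F and -1.09 to -0.27 for APOBEC3G, line differences from -0.84 to 0.68 for APOBEC3B, 0.82 to 1.19 for APOBEC3C, 0.39 to 0.73 for APOBEC3F and -1.18 to -0.91 for APOBEC3G, and interactions from 1.06 to 2.58 for APOBEC3B and 1.06 to 1.44 for APOBEC3C. A minimum of 5 FPKM, which tests fewer genes, left 2325 line and 883 interaction calls and removed APOBEC3F and APOBEC3G, and all 6 libraries as labelled left 1 line call. In UM-UC-3, #1 alone gave 1 member past 2-fold. In the libraries labelled 5637, 1 member passed with a pseudocount of 0.1 (APOBEC3G), no filter (APOBEC3D), 75th-percentile scaling (APOBEC3G), #1 alone (APOBEC3C) or #2 alone (APOBEC3G), and 2 passed at 1.5-fold. That scaling shifted libraries by -0.14 to 0.10 and the median line difference of all genes from -0.02 to -0.14, with no member's direction changed.

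With the hairpin number as a block pairing the lines, 5250 genes passed in the line difference in place of 4949. Adjusted p was 0.0107 for APOBEC3C and 0.0166 for APOBEC3G, and no member's call changed. The numbers mark a shared hairpin and not a shared culture. Of 138 other values, 120 kept direction and side of the threshold, 8 lost the threshold, 5 gained it and 5 reversed. APOBEC3A, APOBEC3D in 5637 and APOBEC3H had too few fragments for a fold to be firm.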
